A study of Mus musculus with 9 samples.

Results

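The genes described here carry glucose into the cell, burn it to pyruvate and lactate, or divert its intermediates into side routes. They were listed by name, with earlier results of these data known. All 39 listed genes were found among the 47729 genes of the table by mouse gene symbol. The main path held 22 of them: 2 glucose transporters, 17 genes for the steps from hexokinase to lactate dehydrogenase, and 3 Pfkfb genes, which set the level of the allosteric activator of phosphofructokinase. The branches held 17: 7 genes of the pentose phosphate pathway, 5 of glycogen metabolism and 5 of hexosamine synthesis. All 39 passed the filter on low values, so none was lost from the tests.

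The cells were synovial fibroblasts, which build the lining of a joint, grown from collagenase-digested paws of wild-type BALB/c mice. Monosodium urate (MSU) crystals, which cause gout when they form in a joint, were injected to inflame the paw. Naive cultures came from paws without an injection, non-primed cultures from right paws injected on day 9, and primed cultures from left paws injected on days 0 and 9, with 3 libraries in each group. The labels give day 18 as the time point for all 9 and 5 passages in culture, so the values describe cells long removed from the inflamed tissue. Paw side coincides with priming, and a mouse may have given both a primed and a non-primed culture. No label says that the cultures of a group came from separate animals, so p-values measure only the spread between these samples, which may be technical. The naive libraries varied most, with a median SD of 0.23 over the members against 0.09 in non-primed and 0.11 in primed cultures. Naive 3 stood apart from the other 8 libraries on the first principal component of all genes tested (38.0% of the variance).

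Glycolysis splits a glucose molecule, spends ATP in its upper part and returns more of it in its lower part, and lactate dehydrogenase restores the NAD that the path consumes. Fibroblasts in culture lean on it heavily, and its genes are textbook targets of the hypoxia-inducible factors and of MYC. The pentose phosphate pathway draws glucose 6-phosphate off to make NADPH and ribose, glycogen stores it, and the hexosamine route turns fructose 6-phosphate into the UDP-sugar used for glycoproteins and hyaluronan. Most steps are served by several paralogs, of which some are made everywhere and others mainly in muscle, liver or brain.

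Injected cultures had higher values for all 17 genes of the glycolytic chain and all 5 glycogen genes, of which 6 and 1 passed the test, while no pentose phosphate or hexosamine gene passed it. Values are regularised log (rlog) values on a log2 scale, and a difference of 1 is a doubling. With both injected groups together against naive cultures, 8 of the 39 members rose past an adjusted p of 0.05 (limma, Benjamini-Hochberg over 15623 genes) and 0 fell. Of all genes 1.22% passed, with 0.710% higher and 0.506% lower. At an unadjusted p below 0.05, 20 members were higher and 1 was lower, against 11.2% and 8.76% of all genes. The 8 were Eno2, Aldoc, Pgk1, Eno1, Pgam1, Pfkl and Slc2a1 of the main path and Pygl of the branches. All 6 injected libraries lay above all 3 naive libraries for 18 of 39 members (46.2%), against 6.13% of all genes. The reverse held for 1 member, Uap1, against 5.34% of all genes.

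Along the main path the median difference between injected and naive cultures was 0.45. It held 20 genes of 22 with a difference above 0, where 50.3% of all genes had one, and 14 without overlap, and 7 of them passed the threshold. Over the branches it was 0.02, with 10 of 17 higher, 1 past the threshold, and 4 without overlap on the higher side and 1 on the lower. The median over all 15623 genes was 0.00. No test was made of the difference between the main path and the branches.

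**Figure D1:**
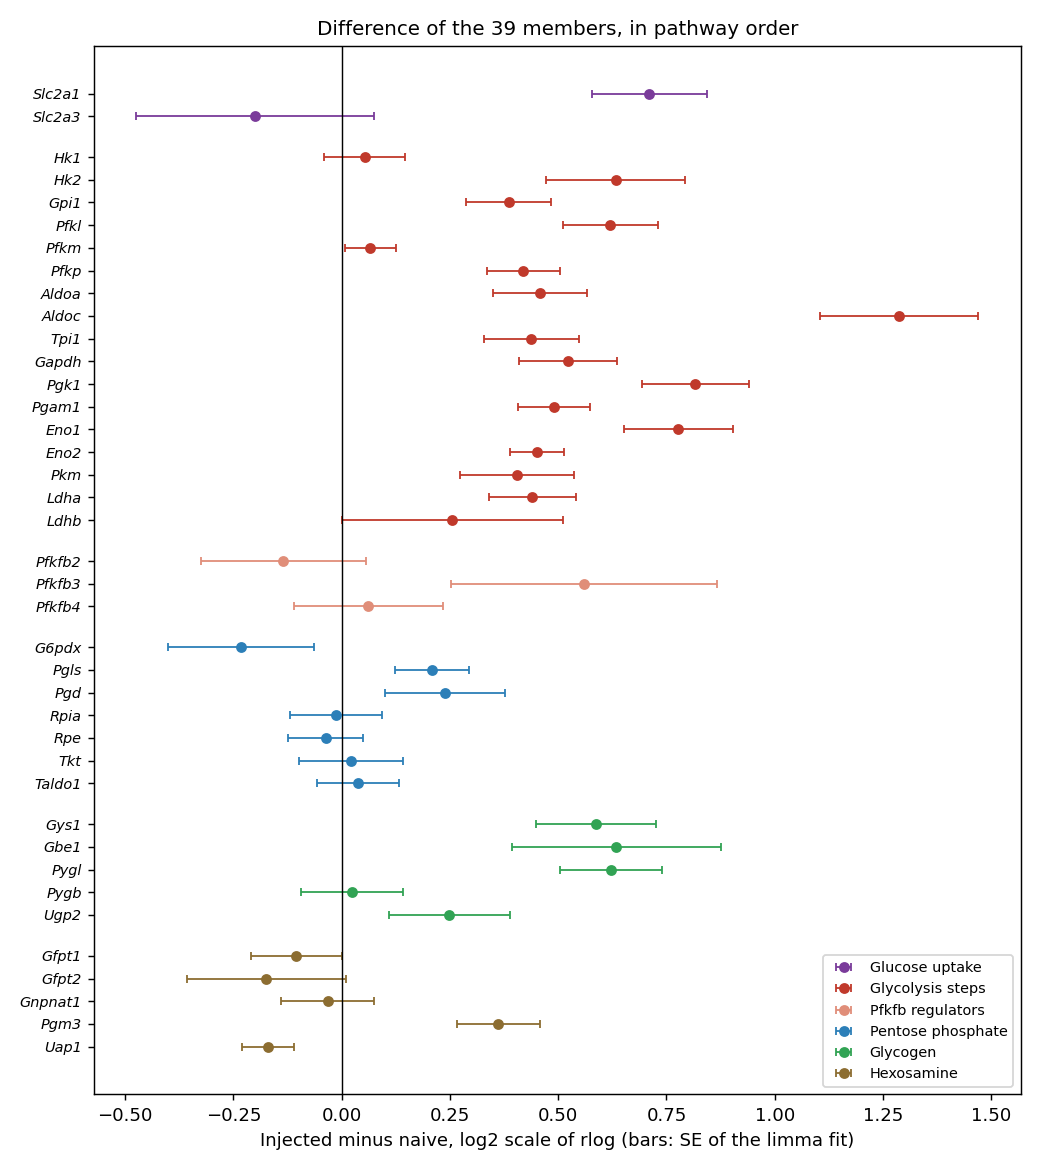
Difference between injected and naive cultures (horizontal axis, log2 scale of rlog) for each of the 39 members in pathway order, with bars of 1 SE (standard error from limma). The 17 glycolysis steps lie at or above 0.05, up to 1.29 for Aldoc, whereas the pentose phosphate genes lie between -0.23 and 0.24.

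The largest difference was in Aldoc, which encodes the brain-type isoform of aldolase, the enzyme that splits the sugar into triose phosphates (ENSMUSG00000017390, chromosome 11, 78322968 to 78327781, GRCm38). Its rlog was 6.83, 7.08 and 6.42 in naive 1 to 3, 7.94, 8.27 and 7.92 in the non-primed and 8.05, 8.38 and 7.81 in the primed libraries. Every injected library lay above the highest naive one, and the injected groups overlapped. The difference was 1.29 (SE 0.18, adjusted p = 0.0281 by limma), which is 2.44-fold.

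Phosphoglycerate kinase, the first ATP-yielding enzyme of the path, is encoded by Pgk1 (ENSMUSG00000062070, chromosome X, 106187100 to 106203699). Pgk1 stood at 13.34, 12.89 and 13.22 in naive, 13.89, 14.14 and 13.85 in non-primed and 13.83, 14.08 and 14.02 in primed cultures. It was thus an abundant transcript that rose 1.76-fold, a log2 difference of 0.82 (SE 0.12, adjusted p = 0.0303 by limma), with no overlap.

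Both enolase genes rose. Eno1, the ubiquitous enolase (ENSMUSG00000063524, chromosome 4, 150236721 to 150248879), was at 13.43, 13.03 and 12.84 in naive, 13.76, 13.94 and 13.80 in non-primed and 13.87, 13.90 and 13.96 in primed libraries, a difference of 0.78 (SE 0.13, adjusted p = 0.0350 by limma). Eno2, best known as the neuron-specific enolase (ENSMUSG00000004267, chromosome 6, 124760053 to 124769673), was at 11.20, 11.05 and 11.20 in naive, 11.61, 11.48 and 11.59 in non-primed and 11.67, 11.61 and 11.63 in primed libraries. Its difference was smaller, 0.45, but the libraries of each group lay so close together that its SE was only 0.06 (adjusted p = 0.0281 by limma).

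Pgam1, a phosphoglycerate mutase that feeds enolase (ENSMUSG00000011752, chromosome 19, 41911923 to 41918660), was at 10.05, 9.78 and 10.04 in naive, 10.31, 10.45 and 10.46 in non-primed and 10.53, 10.56 and 10.40 in primed cultures, a rise of 0.49 (SE 0.08, adjusted p = 0.0367 by limma). Its lowest injected value exceeded its highest naive value.

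Upstream, the liver-type phosphofructokinase gene Pfkl (ENSMUSG00000020277, chromosome 10, 77986947 to 78010083), whose enzyme commits sugar to glycolysis, was at 13.33, 12.99 and 12.85 in naive, 13.62, 13.57 and 13.63 in non-primed and 13.84, 13.63 and 13.75 in primed cultures. It rose by 0.62 (SE 0.11, adjusted p = 0.0422 by limma). The basal glucose transporter gene Slc2a1 (ENSMUSG00000028645, chromosome 4, 119108711 to 119137983) was at 10.74, 10.63 and 10.08 in naive, 11.02, 11.20 and 11.12 in non-primed and 11.26, 11.26 and 11.30 in primed cultures, a rise of 0.71 (SE 0.13, adjusted p = 0.0455 by limma). For Aldoc, Pfkl, Slc2a1 and Eno1 the lowest value of all 9 libraries was that of naive 3.

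**Figure D2:**
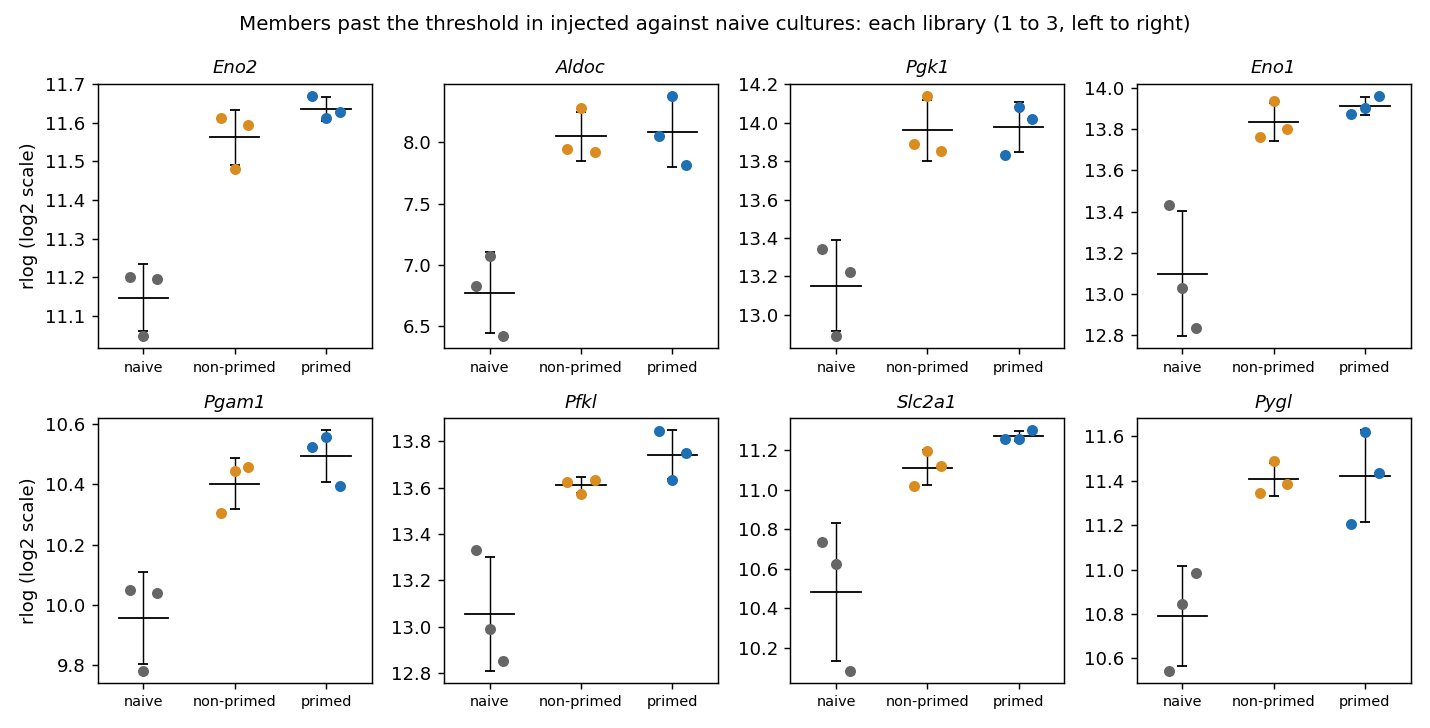
Level (vertical axis, rlog on a log2 scale) of the 8 members that passed the threshold, in each library of the 3 groups, with the group mean as a line and 1 SD as bars (n = 3). In each panel the 3 naive points lie below all 6 injected points, and non-primed and primed points overlap in all panels but that of Slc2a1.

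Pfkp, the platelet-type phosphofructokinase gene, was the nearest main path gene outside the threshold (adjusted p = 0.0553 by limma). It stood at 11.62, 11.36 and 11.53 in naive, 11.81, 12.02 and 11.75 in non-primed and 11.99, 12.04 and 11.93 in primed cultures, a difference of 0.42 (SE 0.08). A further 6 genes of the main path also separated the groups without passing the threshold, with adjusted p from 0.0668 for Gapdh to 0.144 for Pkm by limma. They were Hk2, Aldoa, Tpi1, Gapdh, Pkm and Ldha, which encode a hexokinase, the ubiquitous aldolase, triosephosphate isomerase, glyceraldehyde 3-phosphate dehydrogenase, pyruvate kinase and the muscle-type lactate dehydrogenase. Their differences ran from 0.41 for Pkm to 0.63 for Hk2. Gpi1, the isomerase after hexokinase, differed by 0.39 (SE 0.10), and only naive 1 at 12.60 and non-primed 3 at 12.58 crossed.

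Per kilobase of merged exons the most abundant members were Pkm (13.67 on the log2 scale), Aldoa (13.51), Tpi1 (13.05), Ldha (12.71) and Pgk1 (12.53), and the least abundant were Slc2a3 (5.20), Pfkfb2 (5.84) and Aldoc (5.93). Gapdh, usually among the strongest transcripts of a cell, came only in position 9 at 10.34. Merged exons, 4133 bases for Gapdh, join those of all annotated transcripts. Where they are longer than the transcript made, the level per kilobase is too low. Gapdh, Pgk1, Eno1, Ldha and other glycolytic genes have close copies elsewhere in the genome, and where reads are shared with them the levels are uncertain. Aldoc, the member with the largest difference, was thus among the weakest expressed, while the 5 most abundant members differed by 0.41 to 0.82.

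The promoters of the 8 genes that rose were searched for the core letters recognised by the hypoxia-inducible factors, ACGTG, on both strands. A match on either strand in the 250 bases before a RefSeq start was present in at least 1 window of 18.5% of all 27025 genes with a RefSeq window, where a gene can have several. It was present in 10 of the 21 main path genes that have a window, in 5 of 16 branch genes, and in 4 of the 8 genes that rose. Of all members with a window, 15 of 37 (40.5%) held a match. Those that held one without passing the threshold were Hk2, Pfkm, Aldoa, Pkm, Ldha, Pfkfb2, Pfkfb3, Gfpt1, Gfpt2, Pygb and Ugp2. Counted by window, 35.8% of the 53 member windows and 16.6% of all 32851 windows held a match. The shares over all genes and windows include genes that were not tested here. The same letters lie within the E-box CACGTG, on both strands, so the counts do not tell the 2 motifs apart. No match in the 4 windows below is part of a full CACGTG. Those 4 windows are shown because they belong to members that rose past the threshold and because they hold a match. They are RefSeq sequences on GRCm38.p6, read 5′ to 3′ in the direction of the gene and ending at the base before its start, with the matches in capitals.
Slc2a1, chr4:119108495-119108744, plus strand: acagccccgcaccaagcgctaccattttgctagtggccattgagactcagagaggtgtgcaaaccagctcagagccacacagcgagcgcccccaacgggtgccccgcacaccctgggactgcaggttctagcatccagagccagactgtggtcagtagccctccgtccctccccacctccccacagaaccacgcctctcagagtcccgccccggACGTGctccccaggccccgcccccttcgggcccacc
Pgk1, chrX:106186850-106187099, plus strand: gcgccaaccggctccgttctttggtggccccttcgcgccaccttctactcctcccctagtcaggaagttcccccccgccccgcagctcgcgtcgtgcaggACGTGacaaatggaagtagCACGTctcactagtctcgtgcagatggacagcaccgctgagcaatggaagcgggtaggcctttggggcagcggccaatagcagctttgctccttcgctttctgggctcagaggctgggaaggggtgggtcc
Pgam1, chr19:41911621-41911870, plus strand: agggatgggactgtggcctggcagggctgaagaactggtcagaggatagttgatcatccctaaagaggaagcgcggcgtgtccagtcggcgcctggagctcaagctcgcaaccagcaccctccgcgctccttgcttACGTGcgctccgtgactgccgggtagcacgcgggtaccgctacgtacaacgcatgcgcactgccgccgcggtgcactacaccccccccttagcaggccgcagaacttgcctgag
Pygl, chr12:70227684-70227933, minus strand: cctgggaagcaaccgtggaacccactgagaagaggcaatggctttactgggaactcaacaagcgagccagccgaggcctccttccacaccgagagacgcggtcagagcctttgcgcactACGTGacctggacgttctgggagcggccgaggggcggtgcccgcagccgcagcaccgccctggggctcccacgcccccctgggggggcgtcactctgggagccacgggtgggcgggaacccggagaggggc

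In Pgk1 the 2 matches start 150 and 131 bases before the start and lie on opposite strands, and in Slc2a1 the single match starts 36 bases before it. The windows of Aldoc, Eno1, Eno2 and Pfkl, which rose as well, hold no match in these 250 bases. Such a match describes the letters only.

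Paralogs of the same step had unequal differences. Of the glucose transporters, Slc2a1 rose whereas Slc2a3, a high-affinity transporter of neurons and leukocytes, was at 7.54, 8.05 and 8.99 in naive 1 to 3 and between 7.73 and 8.28 after injection, a difference of -0.20 (SE 0.27). Hk2, an inducible hexokinase, differed by 0.63 (SE 0.16) and the housekeeping Hk1 by 0.05 (SE 0.09). Of the phosphofructokinases, Pfkl and Pfkp differed by 0.62 and 0.42 and the muscle-type Pfkm by 0.07 (SE 0.06).

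Of the lactate dehydrogenases, Ldha differed by 0.44 (SE 0.10) and Ldhb, the heart-type subunit, by 0.26 (SE 0.25). Ldhb was at 11.42, 11.43 and 10.29 in naive libraries and at most 11.57 in injected ones, and naive 3 lay below the other 8 libraries.

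Within a library, the difference between the rlog of Pfkl and Pfkm was 2.70, 2.43 and 2.21 in naive 1 to 3, and 2.80 to 3.17 in the injected libraries. That between Pygl and Pygb was -1.42, -1.12 and -1.44 in naive libraries and -0.84 to -0.64 in injected ones. For Hk2 and Hk1 it was 0.05, -0.09 and -0.49 against 0.19 to 0.63, and for Aldoc and Aldoa -8.01, -7.49 and -8.42 against -7.43 to -6.96. The groups did not overlap in these 4 pairs, nor in Pfkp and Pfkm. They overlapped for Slc2a1 and Slc2a3, Eno2 and Eno1, Ldha and Ldhb, and Gfpt2 and Gfpt1. These within-pair values were not tested. For aldolase the gene with the larger difference was the rarer of the pair, and Aldoa also differed, by 0.46 (SE 0.11) without overlap. For phosphofructokinase the gene with the largest difference was the most abundant, Pfkl exceeding Pfkm 3.52-fold per kilobase over the 9 libraries. Pfkp, the rarest per kilobase, differed by 0.42 without overlap. That rank depends on its merged exon length, 13401 bases against 3340 for Pfkm. Without correction for length the mean rlog of Pfkp was 11.78, above the 10.65 of Pfkm.

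**Figure D3:**
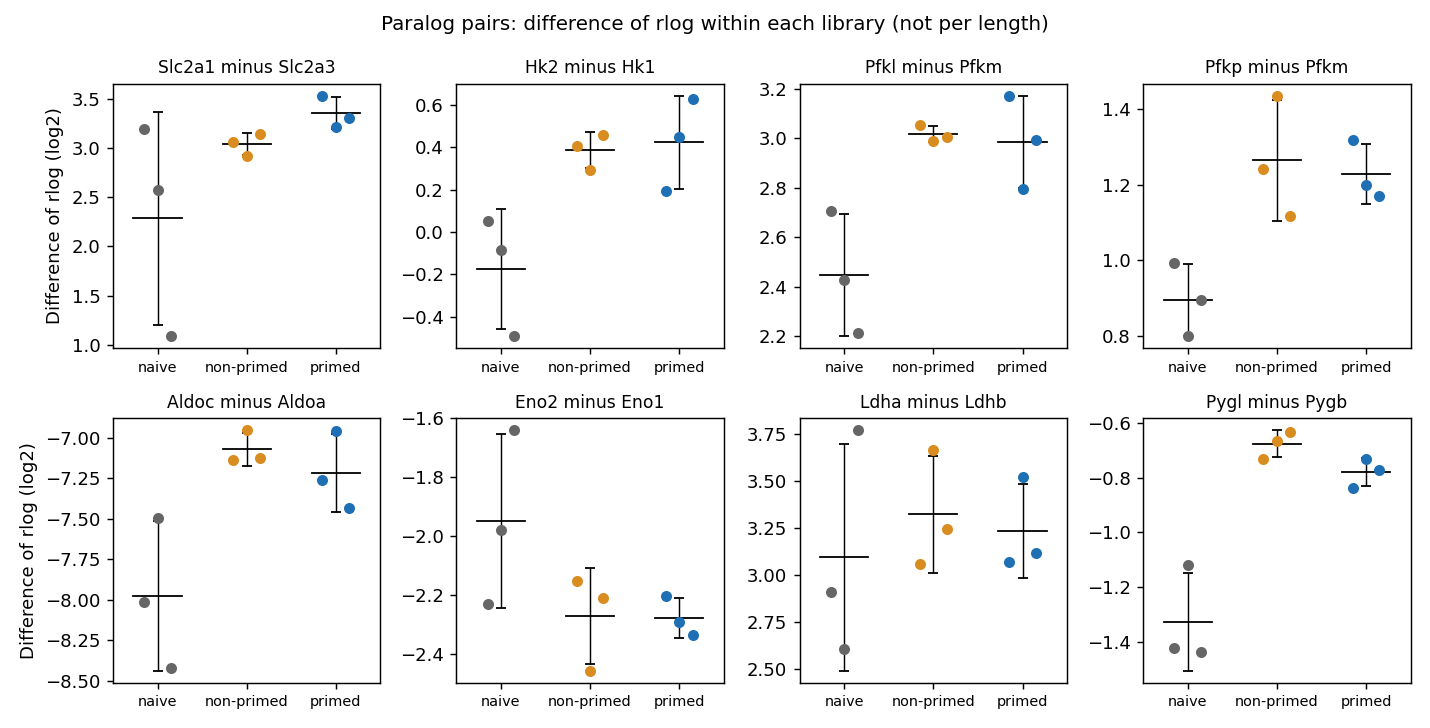
Difference of rlog between paralogs within each library (vertical axis, log2, not corrected for length) for 8 pairs, with the group mean as a line and 1 SD as bars (n = 3). The naive points lie below all injected points for Hk2 minus Hk1, Pfkl minus Pfkm, Pfkp minus Pfkm, Aldoc minus Aldoa and Pygl minus Pygb, and overlap with them in the other 3 panels.

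None of the 3 Pfkfb genes passed the threshold, and none did at an unadjusted p below 0.05. Pfkfb3, whose product drives glycolysis by activating phosphofructokinase, was at 11.03, 11.48 and 9.81 in naive, 11.18, 11.05 and 11.42 in non-primed and 11.59, 11.33 and 11.43 in primed cultures. Its difference was 0.56 (SE 0.31), with naive 3 the lowest library and naive 2 within the range of the injected ones. Pfkfb4 differed by 0.06 (SE 0.17) and Pfkfb2 by -0.13 (SE 0.19), and the groups overlapped for each of the 3.

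Glycogen genes had the highest median difference of the 3 branches, 0.59, with 5 of 5 above 0, 3 without overlap and 1 past the threshold. Pygl, the liver-type glycogen phosphorylase that releases stored glucose units (ENSMUSG00000021069, chromosome 12, 70190811 to 70231488), was at 10.54, 10.84 and 10.99 in naive, 11.34, 11.49 and 11.39 in non-primed and 11.21, 11.62 and 11.43 in primed cultures. It rose by 0.62 (SE 0.12, adjusted p = 0.0468 by limma), or 1.54-fold.

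Gys1, the glycogen synthase of most tissues (ENSMUSG00000003865, chromosome 7, 45434844 to 45456619), was at 10.35, 9.91 and 9.68 in naive, 10.48, 10.72 and 10.46 in non-primed and 10.50, 10.67 and 10.58 in primed cultures. The groups did not overlap, and the difference of 0.59 (SE 0.14) missed the threshold (adjusted p = 0.0810 by limma). Gbe1, the branching enzyme (ENSMUSG00000022707, chromosome 16, 70313949 to 70569716), was at 9.91, 9.81 and 8.73 in naive, 10.07, 9.97 and 10.36 in non-primed and 10.17, 9.97 and 10.15 in primed cultures. Its difference of 0.63 (SE 0.24, adjusted p = 0.195 by limma) went with a naive 3 far below the other naive libraries. Genes without overlap thus included 2 of glycogen synthesis and 1 of its breakdown. Pygb, the brain-type phosphorylase, differed by 0.02 (SE 0.12) and Ugp2, which makes UDP-glucose, by 0.25 (SE 0.14).

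Pentose phosphate genes had a median difference of 0.02, with 4 of 7 above 0. By limma 0 passed the threshold in either direction and 1, Pgls, was higher at an unadjusted p below 0.05, and the libraries overlapped for all 7. G6pdx, the gateway enzyme of the oxidative arm, was at 11.82, 11.58 and 10.92 in naive, 11.001, 11.16 and 11.11 in non-primed and 11.39, 11.35 and 11.24 in primed cultures. Naive 1 and 2 lay above every injected library and naive 3 below every one of them. Without naive 3, G6pdx was the only member that fell past the threshold in injected cultures and in non-primed cultures. The other oxidative genes, Pgls and Pgd, differed by 0.21 (SE 0.09) and 0.24 (SE 0.14). The non-oxidative genes Rpia, Rpe, Tkt and Taldo1, which interconvert sugar phosphates, differed by -0.01, -0.04, 0.02 and 0.04, with SE from 0.09 to 0.12.

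Hexosamine genes held the only member without overlap on the lower side beside 1 on the higher. Pgm3, the phosphomutase of the route (ENSMUSG00000056131, chromosome 9, 86554377 to 86571842), was at 10.58, 10.45 and 10.13 in naive, 10.78, 10.70 and 10.79 in non-primed and 10.69, 10.77 and 10.76 in primed cultures. The difference was 0.36 (SE 0.10, adjusted p = 0.0949 by limma), without overlap. Uap1, the last enzyme before the UDP-sugar (ENSMUSG00000026670, chromosome 1, 170141938 to 170174957), was at 11.39, 11.33 and 11.33 in naive, 11.14, 11.13 and 11.27 in non-primed and 11.13, 11.21 and 11.21 in primed cultures. Uap1 was the only member lower in all injected libraries than in all naive ones, with a difference of -0.17 (SE 0.06, adjusted p = 0.166 by limma). The entry enzymes Gfpt1 and Gfpt2 differed by -0.10 (SE 0.11) and -0.17 (SE 0.18), and Gnpnat1 by -0.03 (SE 0.11). Over the 5 genes the median was -0.10, with 1 higher and 4 lower and 0 past the threshold by limma. At an unadjusted p below 0.05 there were Pgm3 on the higher and Uap1 on the lower side.

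**Figure D4:**
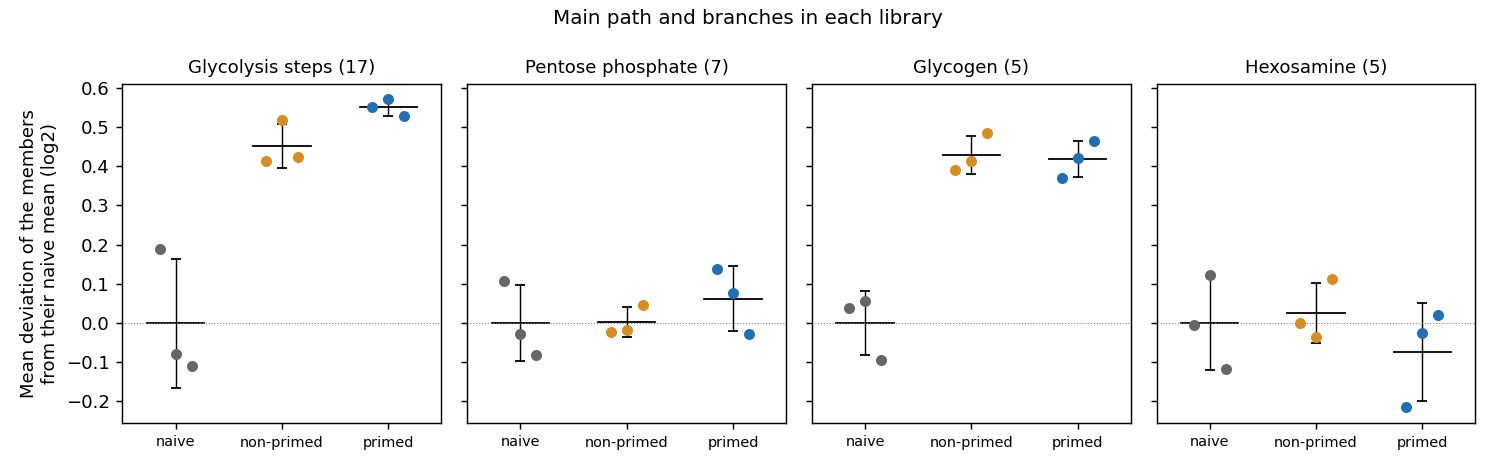
Mean deviation of the members of 4 groups from their naive mean (vertical axis, log2) in each library, with the group mean as a line and 1 SD as bars (n = 3). Injected libraries lie at 0.41 to 0.57 for the glycolysis steps, the primed ones above the non-primed ones, and at 0.37 to 0.48 for the glycogen genes, and overlap with the naive libraries for the pentose phosphate and hexosamine genes.

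Each injected group was also set against the naive libraries, which both comparisons share. In non-primed against naive cultures 0 of 39 members passed by limma, where 0.141% of all genes did, 0.115% higher and 0.0256% lower. At an unadjusted p below 0.05, 19 members were higher and 1 was lower, against 8.58% and 6.84% of all genes. The libraries did not overlap for 18 members on the higher side and 1 on the lower, against 11.6% and 10.3%. A difference above 0 was found for 29 members, against 51.7%. The median difference was 0.40 along the main path and 0.05 over the branches.

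In primed against naive cultures 0 of 39 passed by limma, where 0.102% of all genes did, 0.0960% higher and 0.00640% lower. At an unadjusted p below 0.05, 19 were higher and 1 was lower, against 9.43% and 7.43% of all genes. There 20 members lay higher and 1 lower without overlap, against 8.97% and 8.18%. A difference above 0 was found for 30 members, against 49.8%, and the median difference was 0.49 along the main path and 0.08 over the branches. Aldoc differed by 1.27 (SE 0.21) in non-primed and 1.30 (SE 0.21) in primed cultures, Pgk1 by 0.81 (SE 0.14) and 0.82 (SE 0.14), and Pygl by 0.61 (SE 0.14) and 0.63 (SE 0.14).

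Between primed and non-primed cultures, the comparison that asks what an earlier crystal injection adds, 0 of 39 members and 0% of all genes passed by limma. At an unadjusted p below 0.05 there was 1 member higher and 0 lower, against 0.570% and 0.691% of all genes. It was Pfkm (chromosome 15, 98092589 to 98132451), at 10.62, 10.56 and 10.64 in naive, 10.57, 10.58 and 10.63 in non-primed and 10.67, 10.84 and 10.76 in primed cultures. Its difference was 0.16 (SE 0.07, adjusted p = 1.00 by limma). Next came Gpi1, at 0.21 (SE 0.11), with 12.60, 12.32 and 12.32 in naive, 12.71, 12.77 and 12.58 in non-primed and 13.07, 12.86 and 12.78 in primed cultures, and Gnpnat1, at -0.23 (SE 0.12). Gnpnat1 was at 9.25, 9.58 and 9.29 in naive, 9.51, 9.27 and 9.58 in non-primed and 9.19, 9.14 and 9.34 in primed cultures, so that naive and non-primed libraries covered the same range.

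Primed libraries lay above non-primed ones without overlap for 5 members (Slc2a1, Gpi1, Pfkm, Aldoa and G6pdx), against 6.31% of all genes, and below them for Gfpt1, against 5.25%. The median difference was 0.09 along the main path, with 18 of 22 above 0, and 0.00 over the branches, with 9 of 17 above 0, against 50.3% of all genes. With primed and non-primed libraries paired by number in a replicate block over these 6 libraries alone, 0 members and 0 genes passed. That fit had, at an unadjusted p below 0.05, 7 members higher and 2 lower, against 3.71% and 5.89% of all genes.

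Other genes of the same pathways, 56 in number, had 48 above the filter. Of these, 3 rose in injected cultures and 0 fell, against 0.710% and 0.506% of all genes. Without overlap, 11 lay higher and 2 lower, against 6.13% and 5.34%. The 3 were Slc16a3, the lactate exporter, at 1.05 (SE 0.10, adjusted p = 0.0115 by limma), Nagk, a kinase that salvages N-acetylglucosamine, at 0.40 (SE 0.06, adjusted p = 0.0281), and Epm2a, the glycogen phosphatase laforin, at 0.56 (SE 0.09, adjusted p = 0.0367). The next, Pgam2, the muscle-type mutase, differed by 1.00 (SE 0.20, adjusted p = 0.0572). The median over the 16 other main path genes tested was 0.03, and over the 32 other branch genes 0.16. Without overlap, 2 of these other main path genes and 9 of the other branch genes lay higher, and 0 and 2 lower.

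The calls depended on single libraries, among the members as over all genes. When any 1 of non-primed 1, non-primed 2, non-primed 3, primed 2 or primed 3 was left out, 0 members passed by limma, and the genes that passed over the whole table went from 190 to 8, 13, 0, 19 and 17. In those fits 18 to 20 members were higher and 1 was lower at an unadjusted p below 0.05, against 8.52% to 9.30% and 6.37% to 6.95% of all genes. Without naive 1 there were 11 members and 1.68% of all genes that passed. Against naive cultures, where no member passed in either injected group, leaving out naive 1, naive 2 or naive 3 gave 4, 3 and 6 members past the threshold in non-primed cultures, with 83, 355 and 266 genes in all, where 22 had passed with every library. In primed cultures it gave 4, 5 and 6 members, with 56, 356 and 196 genes in all, where 16 had passed. With primed and non-primed libraries of equal number averaged, since they may share a mouse, 0 members and 0 genes passed by limma. Members at an unadjusted p below 0.05 were 17 higher and 0 lower, against 7.16% and 5.32% of all genes.

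Markers of other cell types were measured in the same libraries. All 14 macrophage markers were higher in injected than in naive cultures, with 0 past the threshold, and none was at 0 in any library. Their mean was 7.80, 9.99 and 7.45 in naive 1 to 3 and 9.69 to 10.88 in the injected libraries. Naive 2 thus had a macrophage mean within the injected range. The mean deviation for the 17 glycolysis steps was 0.19, -0.08 and -0.11 in naive 1 to 3 and 0.41 to 0.57 in injected libraries. With the macrophage mean as a covariate, the median difference of the main path was 0.51, that of the branches 0.15, and 0 members and only 1 of all 15623 genes passed by limma. That fit had, at an unadjusted p below 0.05, 17 members higher and 1 lower, against 7.53% and 8.69% of all genes. Aldoc was at 0.81 (SE 0.19) in that fit, Pgk1 at 1.00 (SE 0.18), Eno2 at 0.56 (SE 0.09) and Slc2a1 at 0.53 (SE 0.20). Macrophage level and injection largely coincided in these libraries, so their parts in the result cannot be told apart.

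All 12 skeletal muscle markers were also higher, with a mean of 2.95 to 3.15 in naive and 3.12 to 4.34 in injected libraries. Of the 12, 5 had a mean rlog below the filter of 3 and were not tested. Among these Ckm, the muscle creatine kinase, was at -0.15 to 0.03 throughout. Adipocyte markers had a mean of 5.37 to 7.11 in naive and 5.30 to 6.10 in injected libraries, with Lep listed at 0 in every library. Proliferation markers had a mean of 9.06 to 9.77 in injected libraries, between which naive 1 (9.44) and naive 3 (9.62) lay, and naive 2 was the lowest. The part of these 3 lists in the result was not tested. The mean of 11 fibroblast markers was 13.86 to 14.63 in all 9 libraries. Among them Pdpn, the podoplanin gene, rose by 0.51 in injected cultures (SE 0.09, adjusted p = 0.0367 by limma) without overlap, and it was the only gene of these marker lists that passed. In bulk cultures, fewer cells of a type and less RNA per cell cannot be told apart.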

How the data were processed

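RNA from 9 cultures was sequenced as stranded mRNA libraries, per the labels' protocols. Per the submitters' processing notes, the tools were cutadapt 2.5, STAR 2.5.4a, Subread 1.6.1 with featureCounts and DESeq2, on GRCm38. For the annotation release and the strand setting, no label or header used here has an entry. What the authors deposited are rlog values on a log2 scale, a DESeq2 transform that scales for depth and shrinks differences of weakly expressed genes. The depth of each library is unknown, so precision is that of the spread between 3 libraries.

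Symbols matched 47224 of 47729 identifiers. Coordinates and merged exon lengths are those of GENCODE M21 (GRCm38). The 15623 genes with some variation and a mean rlog no lower than 3 were tested. limma 3.58.1 in R 4.3.3 fitted 1 mean per group over all 9 libraries (6 residual degrees of freedom) with a mean-variance trend, two-sided. The injected contrast is the mean of the primed and non-primed groups minus naive. On simulated data the fit recovered 76 of 100 genes with a log2 change of 1 and 94 of 100 with a change of 2. Smaller changes, such as most of those described here, were not simulated.

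The members, the 56 other pathway genes and the marker lists were chosen with earlier results of these data known. Members given in full are the 8 main path and 5 branch members with the smallest p in the injected contrast, those past the threshold, and the 3 with the smallest p between primed and non-primed cultures. Paralogs are given whatever their values. Deviations of same-numbered primed and non-primed libraries from their group means correlated across genes at 0.418, 0.608 and 0.100, each above 0.1 before rounding. These numbers were therefore taken as possible pairs. Non-primed 3 correlated more with primed 1, at 0.275, than with primed 3. The other unlike-numbered pairs of these groups lay between -0.497 and 0.0312. The design text says that a number need not identify a mouse. For naive and injected libraries the numbers did not pair by this rule. Alternatives covered the filter, trend, prior, weights, scaling, a replicate block, a macrophage covariate and leaving out each library. Beside marker lists of macrophages, fibroblasts, skeletal muscle, adipocytes and proliferation, those of endothelial cells (mean 3.04 to 3.82 in naive and 3.41 to 3.71 in injected libraries) and Schwann cells and nerve (6.44 to 7.45 and 6.92 to 7.78) were summarised.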

Additional observations from a re-analysis of the deposited data

How the results depend on the processing

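The median difference of the main path stayed between 0.39 and 0.51 for injected, 0.35 and 0.47 for non-primed and 0.45 and 0.58 for primed against naive cultures when any 1 library was left out, and that of the branches between 0.0074 and 0.14, 0.018 and 0.14, and 0.0064 and 0.18. For members past the threshold the ranges were 0 to 11, 0 to 6 and 0 to 6. Between primed and non-primed cultures members without overlap ranged from 6 to 18. The 18, without non-primed 2, were 12 higher and 6 lower, against 13.3% and 13.8% of all genes. The 8 members past the threshold in injected cultures were 4 with no filter, 4 with no variance trend, 5 with quantile normalization, and 0 with the macrophage covariate or with equal numbers averaged, an alternative chosen after seeing the data. With the covariate the branch medians were 0.15, 0.13 and 0.20. With sample weights, which leave most weight on non-primed 1 and primed 3, the main path medians were 0.32 for injected and 0.25 for non-primed cultures. With those weights 7 members (6 higher, 1 lower) passed in non-primed and 10 (all higher) in primed against naive cultures. Between primed and non-primed cultures 5 passed, 3 higher and 2 lower. The shares of all genes that passed in these comparisons were 3.97%, 4.69% and 13.5%. With the replicate number as a block over all 9 libraries, 1 member (Aldoc) passed in non-primed and 1 (Aldoc) in primed against naive cultures, and 6 in injected cultures. The cause was not tested. For the 13 members given in full against naive cultures, no difference changed sign under any alternative run. The fit on only the groups compared was not run for injected cultures, since that contrast uses all groups. Depth is unknown, so what it limits cannot be stated.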
